A study of Mus musculus with 6 samples.

Results

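The genes of glycolysis and of the hypoxia response were examined in mouse embryonic fibroblasts that lacked or carried Lasp1. The set of 41 genes was chosen by symbol. Of these, 25 code for glucose and lactate transporters, glycolytic enzymes and the kinases that control glycolysis or the use of pyruvate. The other 16 code for the regulators and other targets of the hypoxia-inducible factors (HIF). A probe annotated with the symbol was found for 38 of the 41, 22 of the first class and 16 of the second, out of 19057 genes in all. Hk2, Gpi1 and Eno1 were not analysed here. The cells of both genotypes were of the C57Bl/6NCr strain. Lasp1 knockout cells (Lasp1-/-) were set against wild-type cells (Lasp1+/+), with 3 Illumina bead arrays for each genotype. LASP1 is an actin-binding protein of focal adhesions. The study asked how loss of the gene bears on migration and tumours, going by its title. The labels used here give no passage, embryo age or oxygen tension, and do not state whether arrays came from separate cultures, embryos or clones, so p-values measure the spread between these arrays, which may be technical.

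Glycolysis turns glucose into pyruvate in the cytosol, and lactate dehydrogenase then turns pyruvate into lactate that leaves the cell through monocarboxylate transporters. When oxygen is low, prolyl hydroxylases no longer mark the HIF alpha subunits for the VHL ubiquitin ligase, and the stabilised factors bind short response elements with the core ACGTG or GCGTG near genes for glucose uptake, glycolysis, pH control and collagen maturation. Fibroblasts in culture use glycolysis heavily, and many of these genes are also driven by other factors. HIF alpha subunits are controlled mainly at the protein level, which RNA arrays do not measure.

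Of the 38 measured genes, 5 rose and 3 fell in knockout cells at a limma adjusted p under 0.05 over all genes, and 30 did not pass. The rises were in the glucose transporter Slc2a1, the phosphofructokinase Pfkl, the carbonic anhydrase Car12, the collagen prolyl hydroxylase subunit P4ha2 and Ankrd37. The falls were in the second glucose transporter Slc2a3, the second carbonic anhydrase Car9 and Ndrg1. Among all 19057 genes 2.19% rose and 4.08% fell, and among the 11985 genes brighter on average than the median of all probes 3.46% rose and 6.47% fell. The called genes were 21.1% of the measured members, beside 6.28% of all genes and 9.94% of the brighter ones. The members were chosen with earlier results of these data known, so these shares describe the list and are no independent test. The median log2 difference, knockout minus wild type, was 0.05 over the members, -0.02 over all genes and -0.06 over the brighter genes. The 3 knockout arrays lay entirely above the 3 wild-type arrays in 11 members and entirely below them in 5, where 7.34% and 14.0% of all genes did so. Together these 16 members compare with 21.3% of all genes and 27.7% of the brighter ones. An exact two-sided permutation test gave p = 0.1 for each of these 16 genes, the smallest that 3 arrays against 3 allow. That value follows from the separation of the groups and adds nothing to it. Leaving out wild type replicate 1 gave 8 rises. Leaving out wild type replicate 3 gave 2, as did leaving out either of knockout replicates 1 and 2. Leaving out knockout replicate 3 gave 3 rises and 1 fall. The shares of all genes in these analyses are not given here, so whether the counts follow a shift over all genes cannot be told. After quantile normalization 11 rose and 4 fell, where 5.29% of all genes rose and 5.68% fell. Scaling on the 75th percentile gave 8 rises and 4 falls, beside 3.81% and 5.96% of all genes, and background correction gave 1 rise and 3 falls, beside 1.44% and 1.84%.

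**Figure D1:**
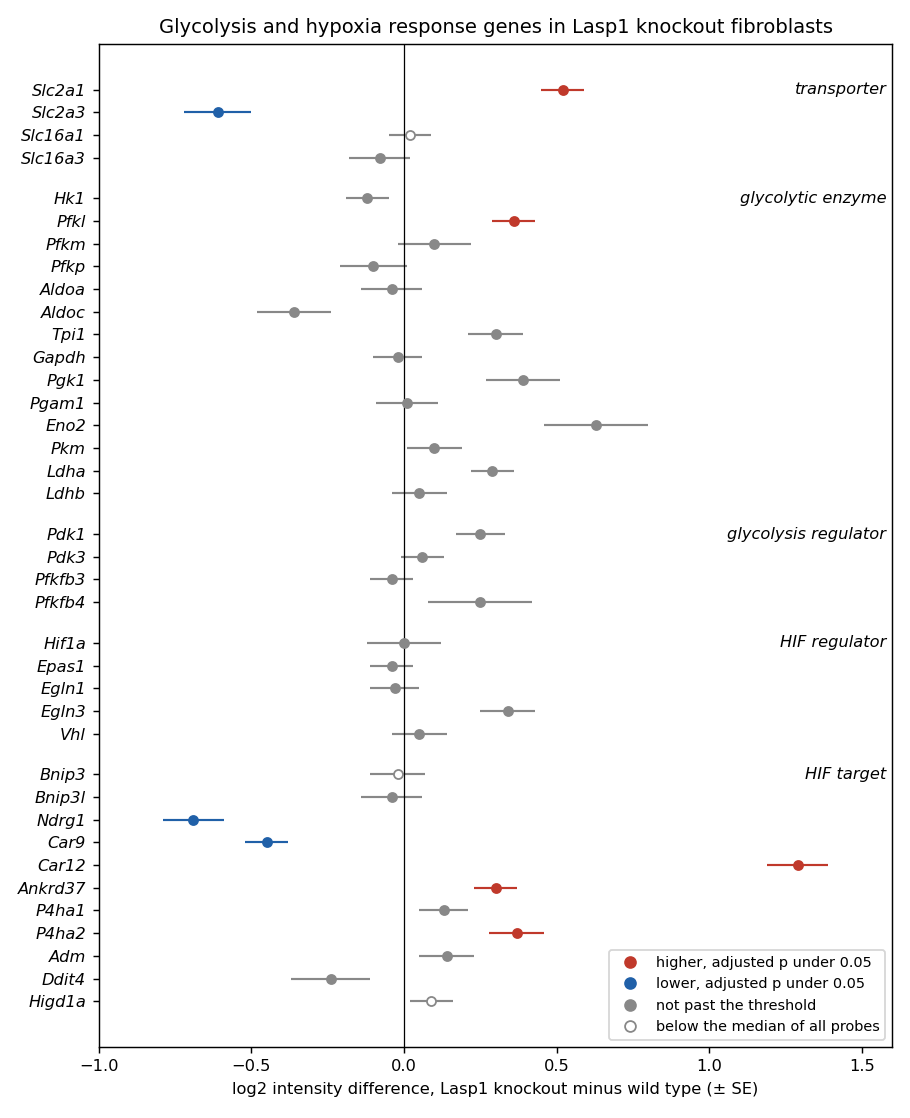
Log2 intensity differences (horizontal axis, knockout minus wild type, ± SE from limma over 3 arrays each) for the 38 measured genes, grouped by role down the page. Red points rose and blue points fell at an adjusted p under 0.05; Car12 lies farthest to the right at 1.29 and Ndrg1 farthest to the left at -0.69, and open points are probes below the median of all probes in both groups.

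Intensities were on a linear scale in which every array had a median of 1000 and a lowest value of 593 to 638. The dimmest probes thus lay far above 0, and folds of dim members are compressed. For 35 of the 38 members at least 1 genotype lay above 993, the median over probe means, and none came above 33.1% of the highest value of its array. Lasp1 itself averaged 50898 ± 1070 in knockout cells and 144104 ± 7630 in wild-type cells (SD, n = 3 each), 0.353 times the wild-type level, and was called lower in all 14 alternative analyses. The position of its probe relative to the disruption is not known here. The upper quartile was highest in knockout replicate 1 and wild type replicate 2 (2283 and 2330, against 2018 to 2112 in the other arrays). Within its genotype, knockout replicate 1 was the highest array in 23 of those 35 members, and wild type replicates 1, 2 and 3 in 13, 14 and 8. Among the brighter genes of the whole table knockout replicate 1 was highest in 66.1%, and wild type replicates 1, 2 and 3 in 16.6%, 64.1% and 19.4%. All 10 fibroblast markers exceeded the probe median, with a summed intensity of 794721 to 851282 in knockout arrays and 971266 to 1122310 in wild-type arrays, and 4 of them fell (Col1a2, Pdgfrb, Thy1 and Dcn). The sum of 8 keratinocyte and epithelial markers was 10258 to 10471 in knockout arrays and 22056 to 27068 in wild-type arrays. Krt14 and Krt8 fell, and Krt5 and Epcam were below the median. Most of the gap in the sum lay in Krt14 (mean 2564.7 in knockout and 15557.1 in wild type). Krt18 and Cldn4 had separate groups with knockout higher, without reaching the threshold (log2 differences of 0.18 and 0.31). Summed skeletal muscle markers ran from 20921 to 21909 in knockout arrays and from 11434 to 13030 in wild-type arrays (1 of 5 rose, Acta1, and Myod1 was below the median). Most of that gap lay in Acta1 (mean 12873 in knockout and 4545.5 in wild type). For 4 adipocyte markers the sums were 5805 to 6083 in knockout and 8925 to 9783 in wild type (Adipoq fell, Fabp4 and Plin1 below the median). For 6 macrophage and blood markers they were 11978 to 12838 in knockout and 9134 to 10390 in wild type (Lyz2 rose, Ptprc below the median). For 6 endothelial markers they were 9134 to 9597 in knockout and 8264 to 8775 in wild type (Emcn rose, Cdh5 and Tie1 below the median). Emcn averaged 3633.6 in knockout and 2366.7 in wild type. Tek, also endothelial, had separate groups with knockout lower (log2 difference -0.29), without reaching the threshold. Of 4 neural and glial markers Nes rose and Sox10 fell, with S100b below the median and sums of 7856 to 9942 in knockout and 6628 to 7882 in wild type. The 2 red blood cell markers were below the median in both genotypes, at sums of 1634 to 1826 in knockout and 1708 to 1777 in wild type. The part of these cell type differences in the results below was not tested, and in bulk RNA fewer cells of a type and less RNA per cell cannot be told apart.

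The 250 bases before the annotated start of 4 members that differed between genotypes are shown 5′ to 3′ because they cover the widest rise (Car12), its paralog that fell (Car9), and a transporter and a collagen hydroxylase gene that rose. They are RefSeq promoter sequences of build GRCm38.p6, and capitals mark ACGTG or GCGTG on either strand (CACGT or CACGC when read on the strand shown). Slc2a1 is at chr4:119108495-119108744, P4ha2 at chr11:54100674-54100923, Car9 at chr4:43506776-43507025 and Car12 at chr9:66713436-66713685, all on the plus strand.
Slc2a1: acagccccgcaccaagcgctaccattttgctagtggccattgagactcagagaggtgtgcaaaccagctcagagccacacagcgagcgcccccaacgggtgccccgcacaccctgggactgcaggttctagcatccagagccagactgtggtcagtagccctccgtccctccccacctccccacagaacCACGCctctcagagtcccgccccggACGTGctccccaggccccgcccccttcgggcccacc
P4ha2: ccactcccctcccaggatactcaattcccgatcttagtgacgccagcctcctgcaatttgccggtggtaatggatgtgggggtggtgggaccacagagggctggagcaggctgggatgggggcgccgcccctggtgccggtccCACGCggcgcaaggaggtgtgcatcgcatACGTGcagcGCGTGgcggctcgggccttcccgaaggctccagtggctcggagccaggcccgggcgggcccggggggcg
Car9: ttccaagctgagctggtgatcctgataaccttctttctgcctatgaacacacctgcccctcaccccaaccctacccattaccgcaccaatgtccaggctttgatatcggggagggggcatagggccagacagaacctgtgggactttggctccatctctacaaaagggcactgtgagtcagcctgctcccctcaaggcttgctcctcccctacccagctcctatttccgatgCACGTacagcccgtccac
Car12: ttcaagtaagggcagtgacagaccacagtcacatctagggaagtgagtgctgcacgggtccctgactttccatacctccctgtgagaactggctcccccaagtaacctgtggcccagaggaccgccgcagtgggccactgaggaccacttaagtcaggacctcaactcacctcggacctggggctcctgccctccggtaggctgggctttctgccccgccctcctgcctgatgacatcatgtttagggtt
The stretch of Slc2a1 holds 1 ACGTG and 1 GCGTG, that of P4ha2 holds 1 ACGTG and 2 GCGTG, and that of Car9 holds 1 ACGTG. Neither core occurs in these 250 bases of Car12, which says nothing of elements elsewhere. Over the full RefSeq windows of 300 bases (250 before and 50 after the start), 34 of the 38 measured members had an entry, and 30 of them held either core at any listed start, or 88.2% beside 46.7% of all 27025 genes in the table. ACGTG was found in 70.6% of the members and 21.8% of all genes, and GCGTG in 67.6% and 35.2%. A CACGTG counts on both strands. The members were listed for their place in glycolysis or the HIF response, so these shares describe the list and not the knockout. The members' windows were also richer in G and C, at a median of 62.7% with 20 CG dinucleotides, beside 52.7% and 7 over all windows, and the part of base composition in these shares was not tested. Either core was found in 4 of 5 genes that rose, in the 1 gene with an entry that fell (Car9) and in 25 of 28 that did not pass.

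Glucose enters fibroblasts mainly through GLUT1 and, with higher affinity, GLUT3, and their genes moved in opposite directions. Slc2a1, which codes for GLUT1, read 41311, 41131 and 38085 in knockout arrays, against 27931, 29481 and 26813 in wild-type arrays. Every knockout array was above every wild-type array. The log2 difference was 0.52 ± 0.07 (SE), a 1.43-fold rise with a limma adjusted p of 0.00372, and it passed without each of the 6 arrays in turn (adjusted p up to 0.0305). Slc2a3, which codes for GLUT3, read 4279, 3476 and 3458 in knockout arrays, against 5125, 6231 and 5760 in wild-type arrays. The groups were again separate, with a log2 difference of -0.61 ± 0.11 and 0.654 times the wild-type level (limma adjusted p = 0.0106). That fall did not pass without wild type replicate 3 (adjusted p = 0.067), knockout replicate 2 (0.0541) or knockout replicate 3 (0.0736), while its log2 difference stayed between -0.71 and -0.55. Background correction took the adjusted p of Slc2a1 to 0.0533 at a log2 difference of 0.55. The lactate transporter genes Slc16a1 and Slc16a3 overlapped between genotypes at differences of 0.02 ± 0.07 and -0.08 ± 0.10, with both probes close to the array median.

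**Figure D2:**
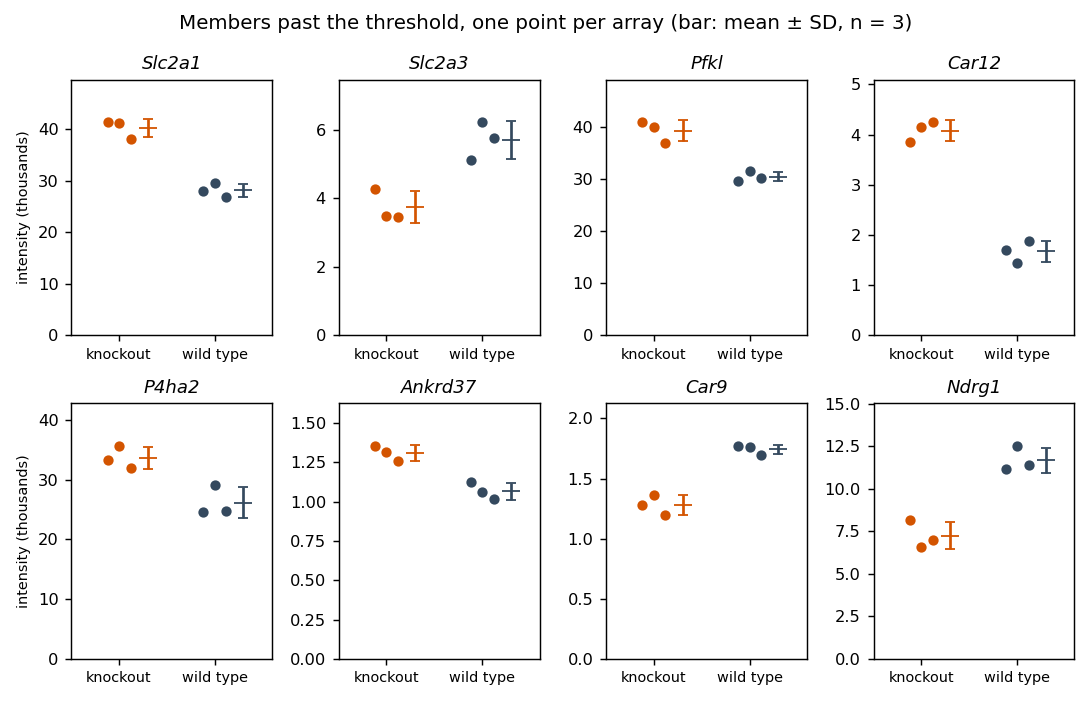
Intensity divided by 1000 (vertical axes from 0, a scale per gene) of the 8 members past the threshold, 1 point per array, with the mean ± SD of 3 arrays beside the points, knockout left and wild type right. The 2 genotypes share no value in any panel, and the widest gap relative to level is in Car12, at 3843 to 4244 in knockout against 1446 to 1871 in wild type.

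Of the 14 glycolytic enzyme genes measured, 1 rose, none fell and 13 did not pass, with a median log2 difference of 0.07. The share called was 7.14%, close to the 6.28% of all genes and below the 9.94% of the brighter ones. At an unadjusted p under 0.05, 5 were higher and 1 was lower. The share of all genes at that unadjusted threshold is not given here, so such counts, here and below, have no baseline. Pfkl, the liver-type subunit of phosphofructokinase and so part of the committed step of glycolysis, read 40863, 39935 and 36923 in knockout arrays, against 29676, 31460 and 30222 in wild-type arrays. The groups were separate and the gene rose by 0.36 ± 0.07 on the log2 scale (1.29-fold, limma adjusted p = 0.0189). It did not pass without wild type replicate 3 (adjusted p = 0.0917), knockout replicate 1 (0.0564) or knockout replicate 2 (0.0813). A dimmer Pfkl probe showed a difference of 0.05 ± 0.07 at 1326 ± 87.8 in knockout and 1280 ± 30.6 in wild type (SD, n = 3 each), near the array median. The muscle and platelet subunit genes Pfkm and Pfkp gave 0.10 ± 0.12 and -0.10 ± 0.11, with overlapping groups.

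A further 6 enzyme genes had separate groups without reaching the threshold. Knockout arrays were above wild-type arrays for Eno2, Pgk1, Tpi1 and Ldha and below them for Aldoc and Hk1. With Pfkl, groups were separate in 7 of the 14 enzyme genes, 5 with knockout higher and 2 with knockout lower. Among all genes 7.34% were separate with knockout higher and 14.0% with knockout lower. In either direction 21.3% of all genes and 27.7% of the brighter ones were separate. The difference of Hk1, a hexokinase gene, was small (-0.12 ± 0.07, adjusted p = 0.438). The neuron-type enolase Eno2 read 34704, 30654 and 32242 in knockout arrays, against 15946, 28266 and 20586 in wild-type arrays. Its wild-type arrays spread 1.77-fold, the widest of any member within a genotype, and the log2 difference of 0.63 ± 0.17 had a limma adjusted p of 0.0726. Without wild type replicate 2, the highest of the 3, Eno2 was 0.84 higher and passed (adjusted p = 0.00128), whereas the 5 other analyses without 1 array reached adjusted p values up to 0.252. Pgk1, the first ATP-producing kinase of the pathway, read 35810, 30661 and 32682 in knockout arrays, against 30348, 22879 and 23095 in wild-type arrays. Here wild type replicate 1 stood close to the knockout arrays, and the difference was 0.39 ± 0.12 (adjusted p = 0.0992). Tpi1, triosephosphate isomerase, had 121355, 107143 and 102822 in knockout arrays, against 98312, 86636 and 84965 in wild-type arrays, a difference of 0.30 ± 0.09 (adjusted p = 0.106). A second bright Tpi1 probe overlapped between genotypes at 37935 ± 4590 in knockout and 33815 ± 5010 in wild type (SD, n = 3 each; 0.17 ± 0.12, adjusted p over all probes 0.585), and the mean over the probes of Tpi1 gave 0.18. Ldha, the lactate dehydrogenase subunit that favours lactate production, read 133224, 129537 and 126419 in knockout arrays, against 113974, 101549 and 103704 in wild-type arrays, a difference of 0.29 ± 0.07 (adjusted p = 0.0568). Without wild type replicate 1 limma called Pgk1 (adjusted p = 0.00819), Tpi1 (0.0478) and Ldha (0.0323). None of these genes passed in the 5 other analyses without 1 array (limma adjusted p up to 0.34, 0.34 and 0.215). Aldoc, the brain-type aldolase, was lower at 3984, 2917 and 3658 in knockout arrays, against 4234, 4917 and 4295 in wild-type arrays (-0.36 ± 0.12, adjusted p = 0.132). Eno2, Pgk1, Tpi1 and Ldha rose and Aldoc fell at an adjusted p under 0.05 after quantile normalization (differences of 0.73, 0.49, 0.33, 0.34 and -0.29). None of them passed after background correction (limma adjusted p of at least 0.131). Across the 14 alternatives Eno2, Pgk1, Tpi1, Ldha and Aldoc passed in 5, 4, 3, 4 and 3.

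**Figure D3:**
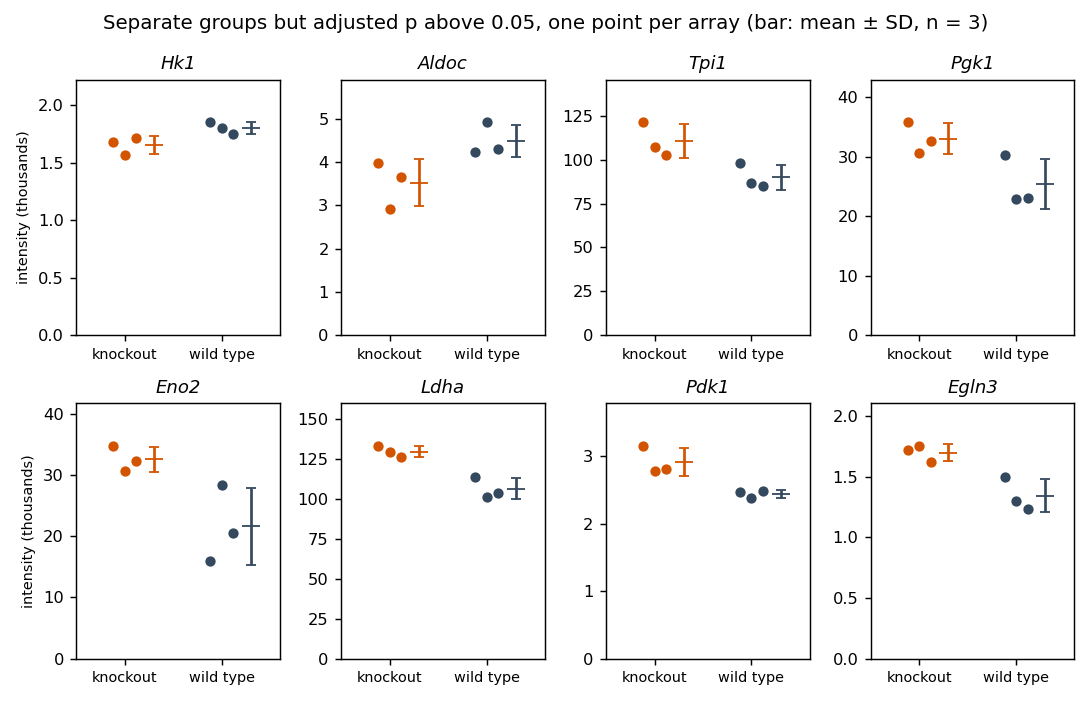
Intensity divided by 1000 (vertical axes from 0) of the 8 members whose genotypes share no value but whose adjusted p was above 0.05, 1 point per array with the mean ± SD of 3 arrays, knockout left and wild type right. Hk1 and Aldoc are lower and the other 6 higher in knockout; Eno2 has the widest wild-type spread, at 15946 to 28266, and in Tpi1, Pgk1, Ldha and Egln3 wild type replicate 1 is the highest wild-type array.

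The other 7 enzyme genes overlapped between genotypes, with log2 differences of -0.10 to 0.10 and adjusted p of at least 0.687. They included Gapdh, often used as a loading control, at 150906 ± 9130 in knockout cells and 153452 ± 8110 in wild-type cells (SD, n = 3 each). Its difference was -0.02 ± 0.08, with a 95% interval of -0.20 to 0.15. Aldoa, the main aldolase of most tissues, had -0.04 ± 0.10 with an interval of -0.26 to 0.17, and the pyruvate kinase gene Pkm had 0.10 ± 0.09 with an interval of -0.11 to 0.30. A second, much dimmer Pkm probe read 1960 ± 440 in knockout and 1280 ± 268 in wild type (SD, n = 3 each), a difference of 0.61 ± 0.17 that did not pass over all probes (adjusted p = 0.092). Ldhb lay close to the array median. Probe sequences were not used here, so cross-hybridisation between paralogs or with processed pseudogenes, which several of these enzymes have, was not tested.

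None of the 4 kinase genes that control glycolysis or the use of pyruvate passed in limma, with 1 higher at an unadjusted p under 0.05. That gene was Pdk1, whose product inhibits pyruvate dehydrogenase and so holds pyruvate back from the mitochondria. It read 3155, 2783 and 2816 in knockout arrays, against 2476, 2379 and 2487 in wild-type arrays, a difference of 0.25 ± 0.08 (adjusted p = 0.0989) that passed after quantile normalization (0.29, adjusted p = 0.0333). Pdk1 passed in 2 of the 14 alternatives and in none of the analyses without 1 array (limma adjusted p up to 0.247). A second Pdk1 probe gave 0.24 ± 0.08. The related Pdk3 gave 0.06 ± 0.07, and Pfkfb3 lay close to the array median in both genotypes. Pfkfb4, which makes the sugar phosphate that activates phosphofructokinase, read 8035, 5811 and 6855 in knockout arrays, against 4629, 7466 and 5472 in wild-type arrays, with overlapping groups (0.25 ± 0.17). In Pfkfb4 as in Eno2, wild type replicate 1 was the lowest and wild type replicate 2 the highest wild-type array.

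None of the 5 HIF regulator genes among the members passed in limma, and 1 of 5 was higher at an unadjusted p under 0.05. Cul2 and Siah1a, oxygen-sensing genes of the wider list that fell, are given below. Hif1a, which codes for the widely expressed alpha subunit, read 11064, 9142 and 9777 in knockout arrays, against 9489, 8738 and 11937 in wild-type arrays. The log2 difference was 0.00 ± 0.12, with a 95% interval of -0.28 to 0.28. Epas1, the second alpha subunit gene, read 986, 1031 and 996 in knockout arrays, against 1035, 1019 and 1034 in wild-type arrays, which is the level of the array median. Vhl, which recognises hydroxylated alpha subunits, was likewise at the median, with 988, 1068 and 951 in knockout arrays, against 1000, 874 and 1031 in wild-type arrays. At that level these probes say little about Epas1 or Vhl. Egln1, the main HIF prolyl hydroxylase gene, gave -0.03 ± 0.08 at its brightest probe and -0.14 and 0.09 at the other probes. Egln3, a prolyl hydroxylase gene that HIF itself induces, read 1720, 1754 and 1621 in knockout arrays, against 1498, 1304 and 1232 in wild-type arrays. The groups were separate, but the difference of 0.34 ± 0.09 had a limma adjusted p of 0.0559 and passed without wild type replicate 1 (0.0151). Egln3 did not pass in the other analyses without 1 array (limma adjusted p up to 0.231), and passed in 5 of all 14 alternatives. A second Egln3 probe above the median gave 0.17 ± 0.08 and the dimmest -0.06 ± 0.07.

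Of the 11 other HIF target genes, 3 rose, 2 fell and 6 did not pass, with a median log2 difference of 0.09. The called genes were 45.5% of these 11, beside 6.28% of all genes and 9.94% of the brighter ones. The list was chosen with earlier results known, so this share is no independent test. Car12 changed most of all members. It codes for a membrane carbonic anhydrase whose active site faces outward, where it helps to control pH around the cell. The gene read 3843, 4142 and 4244 in knockout arrays, against 1692, 1446 and 1871 in wild-type arrays. It rose by 1.29 ± 0.10 on the log2 scale, or 2.45-fold (limma adjusted p = 0.000145), and passed in all 14 alternative analyses at 1.03 to 1.77. A second Car12 probe read 2207 ± 241 in knockout and 1301 ± 104 in wild type (SD, n = 3 each), a rise of 0.76 ± 0.10 (adjusted p over all probes 0.00238). Car9, the carbonic anhydrase gene known as a hypoxia marker, went the other way. Its brightest probe read 1276, 1362 and 1200 in knockout arrays, against 1771, 1759 and 1696 in wild-type arrays, a fall of 0.45 ± 0.07 on the log2 scale (limma adjusted p = 0.00832). Without knockout replicate 3 the adjusted p was 0.0542, and the mean over its 3 probes was -0.18 (adjusted p = 0.114), since the others lay near the median at -0.03 and -0.05. After background correction the log2 difference of Car9 was -0.78.

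Ndrg1, a stress-responsive gene that hypoxia and other signals induce, fell at both of its probes. The brighter one read 8161, 6595 and 7004 in knockout arrays, against 11158, 12526 and 11382 in wild-type arrays. The log2 difference was -0.69 ± 0.10, or 0.619 times the wild-type level (limma adjusted p = 0.00292), and it passed in all 14 alternative analyses at -0.78 to -0.58. The dimmer probe gave 2815 ± 249 in knockout and 4316 ± 425 in wild type (SD, n = 3 each), a fall of 0.62 ± 0.10 on the log2 scale. Ddit4, an inhibitor of mTOR signalling that hypoxia and other stresses induce, read 20649 ± 3110 in knockout and 24337 ± 3330 in wild type (SD, n = 3 each). Its groups overlapped and the difference of -0.24 ± 0.13 did not pass.

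Collagen prolyl hydroxylase, which hydroxylates proline so that the collagen triple helix is stable, has alternative alpha subunits coded by P4ha1 and P4ha2. P4ha2 read 33317, 35612 and 31926 in knockout arrays, against 24512, 29153 and 24762 in wild-type arrays. The groups were separate and the gene rose by 0.37 ± 0.09 on the log2 scale (1.29-fold, limma adjusted p = 0.045). A second probe gave 11357 ± 737 in knockout and 9020 ± 876 in wild type (0.34 ± 0.09, adjusted p over all probes 0.0779). The rise passed without wild type replicate 2 (adjusted p = 0.0102). It did not pass in the remaining 5 such analyses, at 0.0822 without wild type replicate 1, 0.201 without wild type replicate 3, and 0.086, 0.172 and 0.114 without knockout replicates 1, 2 and 3. The P4ha1 probes disagreed. Its brighter probe gave 5023 ± 219 in knockout and 4586 ± 368 in wild type (0.13 ± 0.08, adjusted p = 0.468), and its dimmer probe 4047 ± 712 in knockout and 2641 ± 158 in wild type (SD, n = 3 each), a rise of 0.60 ± 0.12 (adjusted p over all probes 0.0195). Averaged over both probes, P4ha1 rose by 0.37 (adjusted p = 0.0235).

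**Figure D4:**
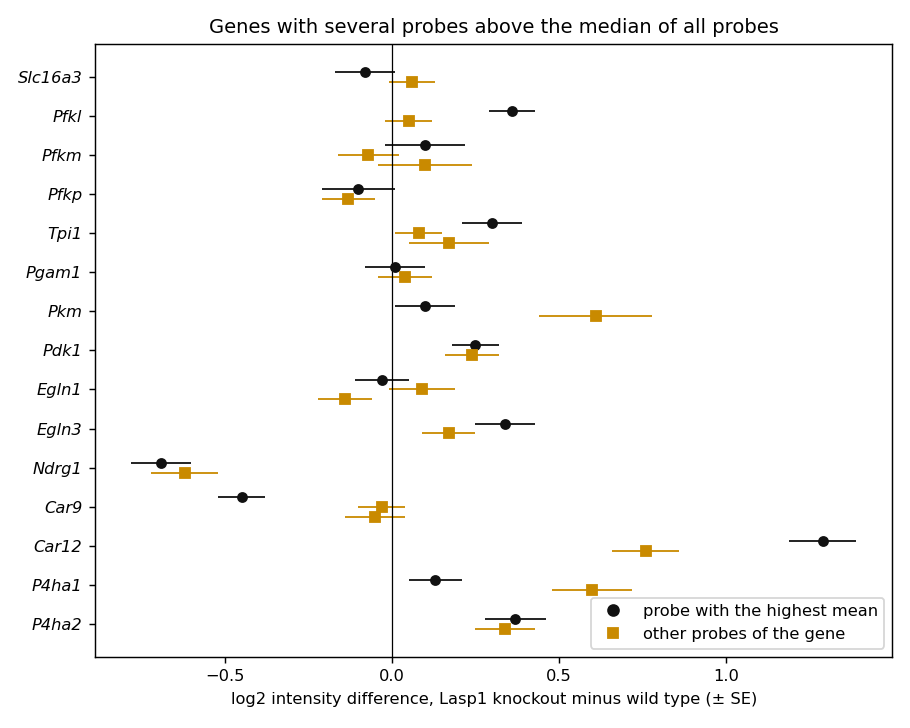
Log2 intensity differences (horizontal axis, knockout minus wild type, ± SE) at each probe above the median of all probes, for the 15 genes with more than 1 such probe; black circles are the probe used for the gene and ochre squares the others. Both Ndrg1 probes lie near -0.69 and -0.62, and the P4ha1 probes lie apart at 0.13 and 0.60.

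Ankrd37, which codes for a small ankyrin repeat protein and is induced by HIF, read 1355, 1316 and 1258 in knockout arrays, against 1124, 1063 and 1015 in wild-type arrays. The groups were separate, and the rise of 0.30 ± 0.07 (1.23-fold) stood at the threshold with a limma adjusted p of 0.0487. It passed without wild type replicate 1 (adjusted p = 0.038) and did not pass in the other such analyses, at 0.0806 and 0.205 without wild type replicates 2 and 3 and 0.115, 0.153 and 0.117 without knockout replicates 1, 2 and 3. At this dim probe the log2 difference after background correction was 0.66 (adjusted p = 0.0532). The remaining targets overlapped between genotypes. The mitophagy receptor gene Bnip3l read 28301 ± 3010 in knockout and 29163 ± 2770 in wild type (SD, n = 3 each), a difference of -0.04 ± 0.10. The vasodilator peptide gene Adm gave 0.14 ± 0.09. Bnip3 and the mitochondrial gene Higd1a lay below the median of all probes in both genotypes.

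The wider pathway was read from a second list of 88 genes, of which 80 were measured and 63 lay above the probe median in at least 1 genotype. In limma 4 rose, 6 fell and 70 did not pass, with a median log2 difference of 0.00. The share called was 12.5%, beside 6.28% of all genes and 9.94% of the brighter ones. This list too was chosen with earlier results of these data known, so the share is no independent test. Fam162a, a mitochondrial protein gene induced by hypoxia, rose by 0.57 ± 0.09 (23770 ± 1550 in knockout and 16079 ± 1430 in wild type, SD, n = 3 each; limma adjusted p = 0.00592). Stc2, a secreted stanniocalcin glycoprotein that several stresses induce, fell by 0.86 ± 0.07 on the log2 scale (2322.5 ± 53.3 in knockout and 4208 ± 75.4 in wild type, SD, n = 3 each; adjusted p = 0.000145). Plin2, which coats lipid droplets, had a difference of -0.49 ± 0.08 (adjusted p = 0.0065). These 3 genes passed without each of the 6 arrays in turn. Pfkfb2, a relative of Pfkfb4, rose by 0.65 ± 0.13 (adjusted p = 0.0199) and Pdk4, a pyruvate dehydrogenase kinase, by 0.48 ± 0.09 (adjusted p = 0.0127). The phosphoglucomutase Pgm1 rose by 0.31 ± 0.08 (adjusted p = 0.0482), while the glycogen phosphorylase Pygb differed by -0.52 ± 0.10 (adjusted p = 0.0133). Cul2, the cullin scaffold of the VHL ligase, differed by -0.36 ± 0.08 (adjusted p = 0.0273). Pfkfb2, Pdk4, Pgm1, Pygb and Cul2 passed in 3, 5, 1, 3 and 2 of the 6 analyses without 1 array, with the highest adjusted p at 0.0739 (Pdk4, without knockout replicate 3) to 0.205 (Pgm1). Pfkfb2 and Pygb lost the call without wild type replicate 3 and without either of knockout replicates 2 and 3, and Cul2 also without wild type replicate 1. Pgm1 passed without wild type replicate 2 alone. The remaining called genes, Pdhb of the pyruvate dehydrogenase complex and the ubiquitin ligase Siah1a, differed by -0.27 and -0.31 and passed in 0 of the 6 limma analyses (adjusted p of 0.0572 to 0.195 and of 0.0514 to 0.207), and were named after these values had been seen. In this list 9 genes rose when wild type replicate 2 was left out, while leaving out wild type replicate 3 or knockout replicate 2 gave 2 rises and 2 falls and leaving out knockout replicate 3 gave 1 rise and 2 falls. Vegfa, the angiogenic growth factor often read as a HIF target, was chosen for mention after its values had been seen. It read 9181 ± 1740 in knockout and 9579 ± 2770 in wild type (SD, n = 3 each), a difference of -0.04 ± 0.20.

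**Figure D5:**
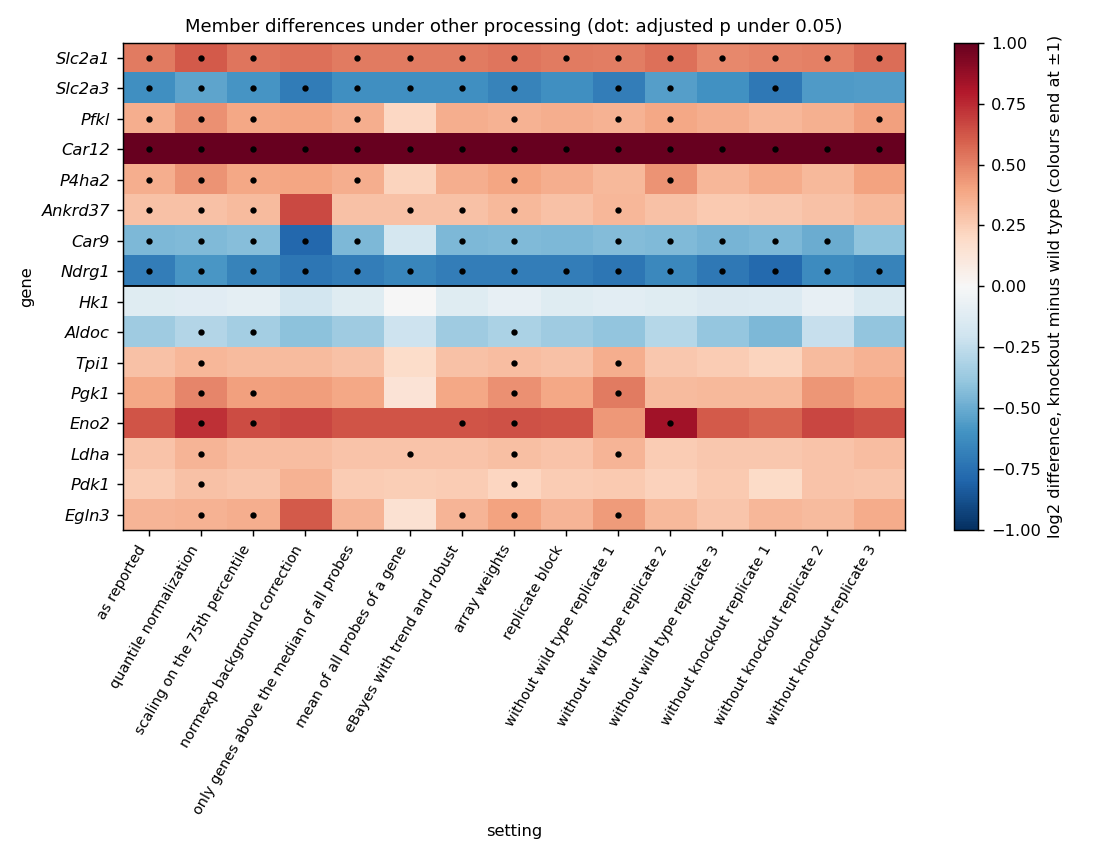
Log2 differences, knockout minus wild type (colour, ending at ±1), of the 16 members whose genotypes share no value (rows; the 8 past the threshold above the line) under the reported analysis and 14 alternatives (columns). A dot marks an adjusted p under 0.05: Car12 and Ndrg1 carry one in every column, Slc2a1 in all but the background correction, and 7 of the 8 lower rows gain one after quantile normalization.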

How the data were processed

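Per the labels' protocols, total RNA was converted to biotinylated cRNA with a kit for Illumina arrays. The authors deposited a linear intensity for each of 45281 probes, with a median of 1000 in each array. How they scanned, scaled and corrected the arrays is not given in the sources used here. Lowest values of 593 to 638 lie far above 0. Probes were named from the platform annotation: 34885 had 1 symbol, 18 had several and 10378 had none there. A gene was represented by its probe with the highest mean log2 value over the 6 arrays, which left 19057 genes. The number of arrays limits the precision.

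From the deposited intensities log2 values were computed, to which limma 3.58.1 (R 4.3.3) was applied (eBayes with 4 residual and 5.13 prior degrees of freedom), with genotype as the only term. Two-sided p-values were corrected over the 19057 genes by the Benjamini-Hochberg method, and a gene was called at an adjusted p under 0.05. The fit was tested on simulated data. Adjusted p at further probes were taken over all named probes.

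Per-array values were given for called members, Hif1a, Epas1, Vhl, Egln3 and the 6 largest differences among other members above the probe median, and up to 4 called genes in each direction from the wider list. Values of other members and of further probes were added after they had been seen. The members and lists were chosen with earlier results of these data known. Alternatives were quantile normalization, scaling on the 75th percentile, normexp background correction (offset 50), a filter on dim genes, the mean of all probes, array weights, eBayes with a trend and robust settings (statmod 1.5.0), a block on replicate number, and each array left out in turn.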

Additional observations from a re-analysis of the deposited data

How the results depend on the processing

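No member that passed in any analysis changed direction in the 14 alternatives. Car12 and Ndrg1 passed in all 14, Slc2a1 in 13, Car9 in 11, Slc2a3 in 10, Pfkl in 7, Ankrd37 in 6 and P4ha2 in 5. The numbers of members that rose and fell, 5 and 3 in the deposited scaling, were 11 and 4 after quantile normalization and with array weights, 8 and 4 with scaling on the 75th percentile, and 1 and 3 after normexp background correction. Over all genes 418 rose and 778 fell, against 1009 and 1083 after quantile normalization. For glycolysis and transport genes alone, 2 rises and 1 fall became 7 and 2 after quantile normalization and with array weights, 4 and 2 with the 75th percentile, and 0 and 1 after background correction (limma, with 7 higher at an unadjusted p under 0.05). For HIF regulators and targets, 3 rises and 2 falls became 1 and 2 after background correction, and 1 fell with the mean of all probes. For the wider list, 4 rises and 6 falls became 13 and 6 after quantile normalization, 9 and 5 with the 75th percentile, 0 (13 at an unadjusted p under 0.05) and 1 after background correction and 11 and 11 with array weights, and 3 fell with trend and robust estimation. The cause of these shifts was not tested. Shares of all genes with array weights, with the replicate block or with 1 array left out are not given here. Leaving out 1 array gave 2 to 8 rises and 1 to 3 falls among all members, 1 to 5 and 0 to 1 among glycolysis and transport genes (1 to 2 lower at an unadjusted p under 0.05 where limma called 0), 1 to 3 and 1 to 2 among HIF regulators and targets, and 1 to 9 and 2 to 6 in the wider list. The median log2 difference over the genes fitted lay between -0.056 and -0.001 in the 14 alternatives. The value of -0.056 was over the brighter genes alone, and the lowest over all genes was -0.046, after background correction.

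The labels number the arrays 1 to 3 in both genotypes. Deviations from the group means over the brighter genes correlated at -0.41, -0.34 and 0.22 between arrays of the same number. Between others they correlated at up to 0.47 (knockout replicate 1 with wild type replicate 2). These arrays had the highest upper quartiles (2283 and 2330), and the part of brightness in the correlations was not tested. Whether arrays of the same number share a batch thus cannot be told from them. The numbers were not taken to pair the arrays in the main fit. With the replicate block 2 members rose and 1 fell (1 and 0 among glycolysis and transport genes, with 2 lower at an unadjusted p under 0.05 in limma, 1 and 1 among HIF regulators and targets, 2 and 1 in the wider list). Epas1, Vhl, Slc16a1, Slc16a3, Pfkfb3, Ldhb, Bnip3 and Higd1a lay so close to background that a missing call says little about them.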
